A study of Arabidopsis thaliana with 15 samples.

Results

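UGT genes encode UDP glycosyltransferases, and they are described here over 5 genotypes of Arabidopsis thaliana leaves. Members were the rows of the count table with a gene symbol made of UGT, a family number, a letter and a gene number, on chromosomes 1 to 5. There were 105 such genes among 33024 in the table. Of these, 72 had at least 10 counts in 3 or more of 15 libraries and are described, all 72 of them also passing the filter of the test. The other 33 were not tested, and 14 of them were listed at 0 in every library. At the edge of the rule, UGT79B9 and UGT79B8 reached 10 counts in 3 libraries exactly, and 8 genes left out reached it in 1 or 2. UGT79B9 passed through its topp4-1 libraries alone, so its call there follows in part from the rule. RNA came from leaves of plants in the Columbia-0 background, 21 days after germination, raised in a greenhouse. Each of 5 genotypes had 3 libraries and no treatment: Columbia-0 wild type, the single mutants pp1r3-2 and topp4-1, their double mutant pp1r3-2 topp4-1, and topp-7m. TOPP genes encode catalytic subunits of type 1 protein phosphatase, the series title names PP1R3 as their regulatory subunit, and topp-7m is labelled as a septuple mutant of topp genes. Whether libraries of 1 genotype stem from different plants is not stated, and p-values here cover the spread between these libraries only, which may be technical.

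UDP glycosyltransferases move a sugar from a UDP-sugar donor, most often UDP-glucose, onto a small acceptor molecule. Plants use them to store, inactivate or transport hormones such as salicylic acid, abscisic acid and auxin, to finish flavonoids and glucosinolates, and to detoxify foreign compounds. Family numbers group the proteins by sequence likeness, and genes of a letter group often lie side by side on a chromosome.

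Total counts ran from 17962200 to 20756997 per library. UGT genes took 0.148 to 0.188% of all counts, and the 3 topp4-1 libraries held the highest shares. Wild-type replicate 3 stood apart in its share of chloroplast-encoded counts, 0.0813% against at most 0.0208% in any other library. All 5 leaf markers were detected, with a summed level of 12160 to 14160 CPM (counts scaled to library size) in topp4-1 and 17750 to 32190 CPM in the other genotypes. All 5 flower markers were detected too, with a summed level of 4.75 to 8.09 CPM in topp4-1 and at most 2.82 CPM elsewhere. PI made up most of that sum, at 4.03 to 6.45 CPM in topp4-1 and 0.155 to 0.372 CPM in wild type, while AP1, AP3, AG and SEP3 each stayed under 0.6 CPM in topp4-1 and overlapped wild type. The 5 root markers summed to at most 0.643 CPM in any library. The 3 meristem markers summed to 0.282 to 12.9 CPM, and both ends of that range were double-mutant libraries. STM made up most of it, at 0.282 to 12.8 CPM within the double mutant. None of these 18 markers was at 0 in every library. The part of these shifts in the UGT changes of topp4-1 was not tested, and in whole leaves fewer cells of a type and less RNA per cell cannot be told apart.

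In topp4-1, 50 of 72 UGT genes differed from wild type, 26 higher and 24 lower, at an adjusted p under 0.05 in edgeR's quasi-likelihood test; over all genes tested the share called was 53.5%, 27% higher and 26.5% lower. In pp1r3-2, 24 differed, 15 higher and 9 lower, beside 19.3% of all genes (10.9% higher and 8.33% lower). In the double mutant 17 differed, 13 higher and 4 lower, beside 13.1% of all genes (7.66% higher and 5.47% lower). In topp-7m 12 differed, 8 higher and 4 lower, beside 11.6% of all genes (6.18% higher and 5.46% lower). As shares of the 72, these counts came to 69.4%, 33.3%, 23.6% and 16.7%. The median absolute log2 fold change of the UGT genes was 0.83 in topp4-1 against 0.44 over all genes tested. It was 0.42 against 0.24 in pp1r3-2, 0.33 against 0.22 in the double mutant and 0.35 against 0.20 in topp-7m. Called UGT genes with a change of at least 2-fold numbered 27 in topp4-1 (19.1% of all genes), 5 in pp1r3-2 (3.89%), 6 in the double mutant (2.72%) and 4 in topp-7m (2.58%).

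The counts with few calls depended on single libraries. Without wild-type replicate 3, the number of UGT genes called fell to 15 in pp1r3-2, 5 in topp-7m and 6 in the double mutant. The share of all genes called fell as well, to 11.8%, 6.65% and 6.8%. In topp-7m the number of UGT genes was 7 without topp-7m replicate 2 (7.66% of all genes) and 5 without topp-7m replicate 3 (6.88%). In the double mutant it was 10 without wild-type replicate 2 (7.88% of all genes) and 7 without double-mutant replicate 3 (7.08%). With only the compared libraries fitted it was 10 there (6.97%). In topp4-1 it stayed between 42 and 50 in each of the 6 fits that left out a wild-type or topp4-1 library. In those fits 45.6 to 50.2% of all genes were called.

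**Figure D1:**
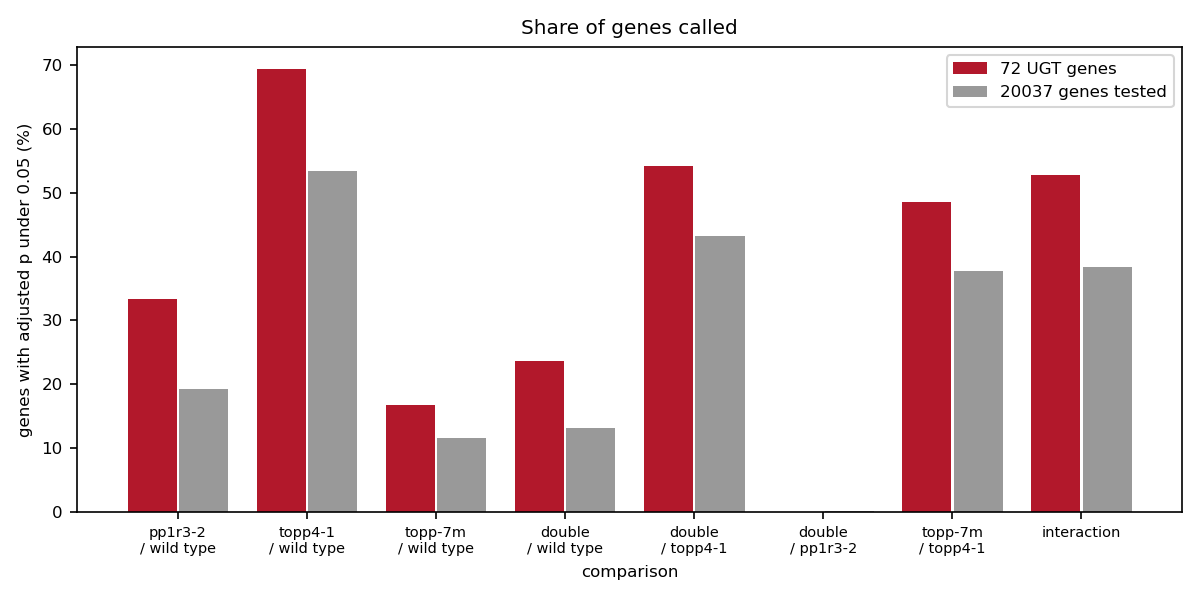
Share of genes with an adjusted p under 0.05 (vertical axis, %) in each comparison, for the 72 UGT genes and for all 20037 genes tested. The UGT share was 69.4% in topp4-1 against wild type and 0% in the double mutant against pp1r3-2.

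**Figure D2:**
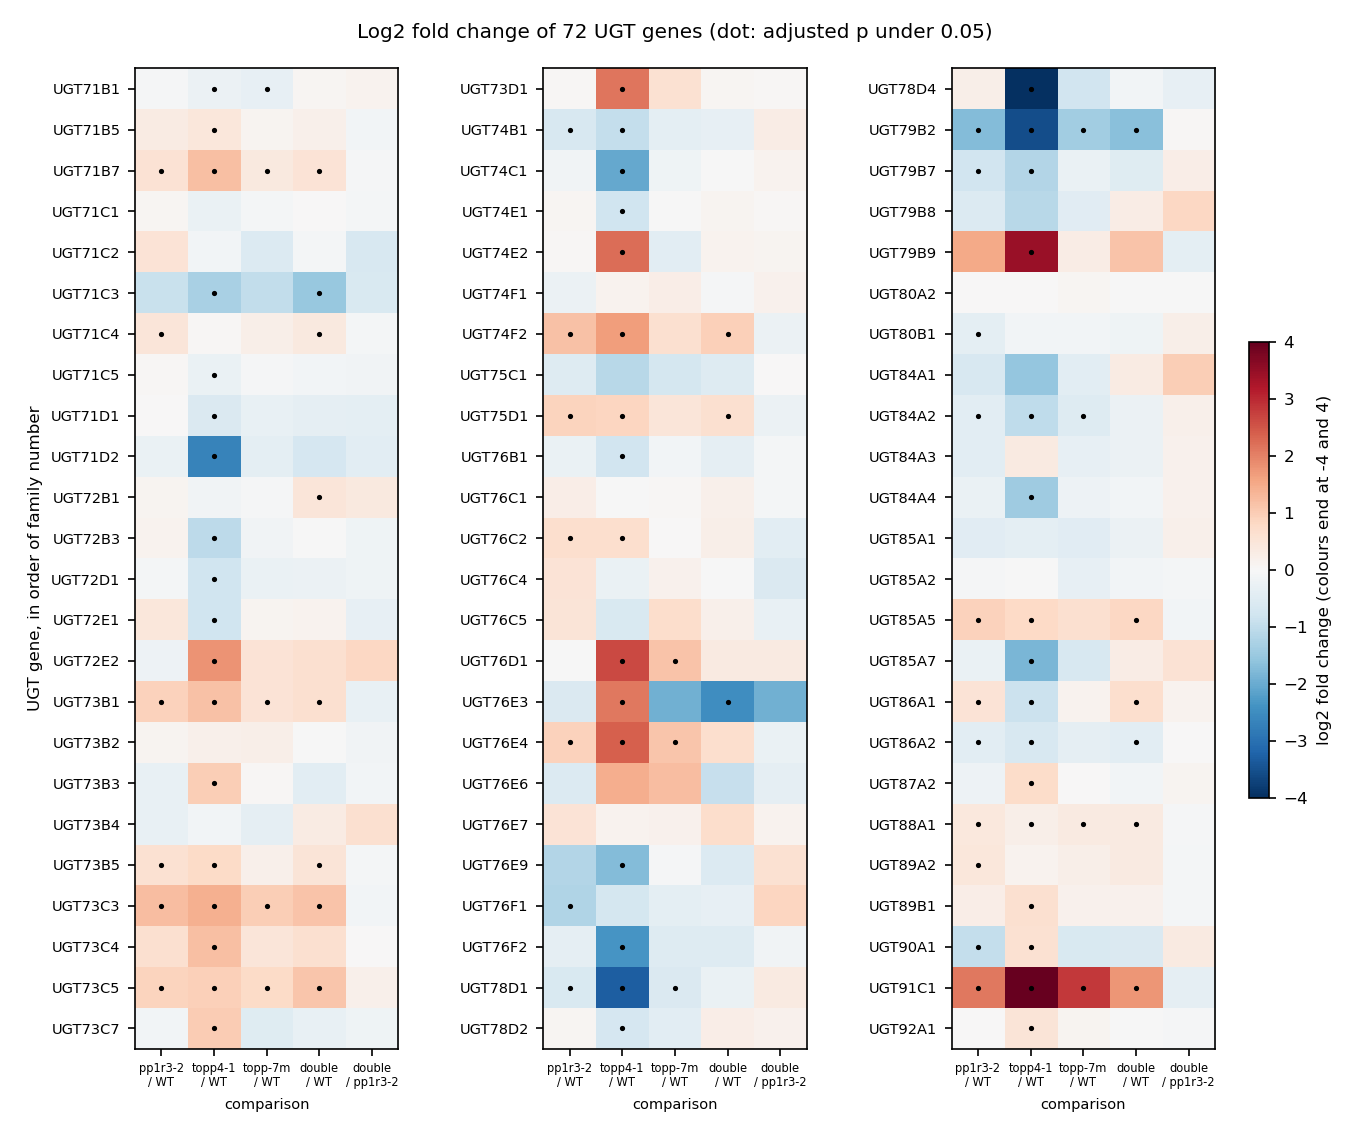
Log2 fold change of each of the 72 UGT genes in 5 comparisons, in order of family number, with colour from -4 (blue) to 4 (red) and a dot where the adjusted p was under 0.05. The topp4-1 column holds 50 dots and the column of the double mutant against pp1r3-2 holds none.

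The strongest rise was that of UGT91C1 (AT5G49690, chromosome 5, 20189655 to 20191604, reverse strand), which is known to glucosylate the herbicide sulcotrione. UGT91C1 stood at 0.536, 1.5 and 0.744 in wild type (CPM). It stood at 5.31, 2.17 and 4.5 in pp1r3-2, 56.4, 40.4 and 41.5 in topp4-1, 4.11, 9.33 and 6.55 in topp-7m and 3.71, 2.53 and 3.22 in the double mutant. Every topp4-1 library lay above every other library, and each mutant group lay above wild type. The log2 fold change against wild type was 5.62 ± 0.40 (adjusted p = 1.01e-07) in topp4-1, 2.83 ± 0.41 (adjusted p = 0.000624) in topp-7m and 2.10 ± 0.43 (adjusted p = 0.00378) in pp1r3-2. In the double mutant it was 1.75 ± 0.44 (adjusted p = 0.0179), and this last call was lost without wild-type replicate 1 or 3 or without double-mutant replicate 1 or 3 (adjusted p up to 0.0859). Wild-type counts were only 10 to 29 reads, so the size of the fold change rests on few reads.

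UGT76D1 (AT2G26480, chromosome 2, 11263889 to 11265855, forward strand) glucosylates dihydroxybenzoic acids, breakdown products of salicylic acid. UGT76D1 stood at 0.804, 1.19 and 0.85 in wild type (CPM). It stood at 0.607, 0.948 and 1.27 in pp1r3-2, 6.86, 4.9 and 6.22 in topp4-1, 2.81, 1.39 and 2.1 in topp-7m and 1.15, 1.29 and 1.19 in the double mutant. The topp4-1 libraries were the highest and the topp-7m libraries came next, above all 3 of wild type, while pp1r3-2 and the double mutant overlapped wild type. The change was 2.65 ± 0.31 (adjusted p = 4.18e-06) in topp4-1 and 1.14 ± 0.32 (adjusted p = 0.0286) in topp-7m. The topp-7m call was lost without wild-type replicate 1 or 3 or topp-7m replicate 1 or 3, and with only the compared libraries fitted (adjusted p up to 0.113).

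UGT76E4 (AT3G46690, chromosome 3, 17197443 to 17199363, reverse strand) belongs to a group of tandem genes. UGT76E4 stood at 13.3, 12.8 and 12 in wild type (CPM). It stood at 23.1, 18.3 and 31.3 in pp1r3-2, 69.9, 68.1 and 61.7 in topp4-1, 18.2, 34.7 and 29 in topp-7m and 15.4, 14.3 and 30.7 in the double mutant. The topp4-1 group lay above every other library, and no mutant library fell into the wild-type range. The change was 2.39 ± 0.30 (adjusted p = 2.21e-05) in topp4-1, 1.10 ± 0.29 (adjusted p = 0.0288) in topp-7m and 0.93 ± 0.29 (adjusted p = 0.0424) in pp1r3-2. In the double mutant the value was 0.66 ± 0.30 (adjusted p = 0.163). The pp1r3-2 and topp-7m calls were weak, each lost in 6 alternative fits, among them the fits without wild-type replicate 1, 2 or 3 (adjusted p up to 0.173 and 0.107).

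The 250 bases upstream of the annotated start of these 3 genes are shown because they rose most in topp4-1 among called members with a mean of at least 2 CPM over the 15 libraries. Under that level, UGT79B9 was called with a rise of 3.47 on the log2 scale. The stretches lie at chr5:20191605-20191854 and chr3:17199364-17199613 on the reverse strand and at chr2:11263639-11263888 on the forward strand (TAIR10.1, sequence from RefSeq). Each runs 5′ to 3′ on the strand of its gene, and capitals mark TTGAC, the core of the W-box that WRKY factors bind, and TGACG, the core of the as-1 element that TGA factors bind, on either strand. In UGT91C1 both cores overlap in 1 run of capitals.
UGT91C1: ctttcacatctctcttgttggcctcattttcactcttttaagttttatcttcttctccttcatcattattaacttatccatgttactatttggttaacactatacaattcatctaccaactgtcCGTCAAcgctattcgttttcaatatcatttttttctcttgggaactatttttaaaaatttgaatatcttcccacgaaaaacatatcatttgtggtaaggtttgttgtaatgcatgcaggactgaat
UGT76D1: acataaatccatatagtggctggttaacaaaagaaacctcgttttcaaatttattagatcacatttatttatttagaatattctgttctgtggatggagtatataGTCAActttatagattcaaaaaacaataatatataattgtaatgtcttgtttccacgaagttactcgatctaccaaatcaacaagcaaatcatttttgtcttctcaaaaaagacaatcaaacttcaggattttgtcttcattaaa
UGT76E4: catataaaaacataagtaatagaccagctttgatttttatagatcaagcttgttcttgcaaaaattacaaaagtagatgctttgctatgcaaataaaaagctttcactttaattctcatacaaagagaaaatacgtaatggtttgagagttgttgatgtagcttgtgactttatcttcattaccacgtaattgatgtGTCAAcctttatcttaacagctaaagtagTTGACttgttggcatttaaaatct

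The deepest fall with counts in every library was that of UGT79B2 (AT4G27560, chromosome 4, 13759800 to 13761603, reverse strand), which is known to act on anthocyanins. UGT79B2 stood at 62.1, 71.3 and 93.3 in wild type (CPM). It stood at 25.1, 24.7 and 19 in pp1r3-2, 6.2, 6.24 and 6.72 in topp4-1, 33.2, 28.7 and 23.6 in topp-7m and 27.1, 23.5 and 20.5 in the double mutant. All 12 mutant libraries lay below all 3 of wild type, and topp4-1 lay below every other group. The change was -3.56 ± 0.18 (adjusted p = 3.1e-09) in topp4-1, -1.72 ± 0.16 (adjusted p = 6.63e-06) in pp1r3-2, -1.67 ± 0.16 (adjusted p = 1.42e-05) in the double mutant and -1.41 ± 0.16 (adjusted p = 5e-05) in topp-7m. Each of these 4 calls was also made in all the alternative fits run. Its coding sequence is 96.0% identical to that of its neighbour UGT79B3, which stood at 0.594 ± 0.331 CPM in wild type (SD, n = 3), so the split of reads between the pair is uncertain.

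UGT78D1 (AT1G30530, chromosome 1, 10814612 to 10816615, forward strand) adds rhamnose to the 3-position of flavonols. UGT78D1 stood at 51.9, 49.6 and 61.1 in wild type (CPM). It stood at 40.7, 37.3 and 29.1 in pp1r3-2, 4.53, 4.39 and 7.54 in topp4-1, 37.5, 32.9 and 37.9 in topp-7m and 54.2, 41.5 and 40.5 in the double mutant. The topp4-1 libraries were lowest by a wide margin, pp1r3-2 and topp-7m lay just under wild type, and the double mutant overlapped wild type. The change was -3.29 ± 0.20 (adjusted p = 1.31e-08) in topp4-1, -0.60 ± 0.17 (adjusted p = 0.0237) in pp1r3-2, -0.59 ± 0.17 (adjusted p = 0.0389) in topp-7m and -0.26 ± 0.17 (adjusted p = 0.346) in the double mutant. The pp1r3-2 call ended when either wild-type replicate 3 or pp1r3-2 replicate 3 was left out (adjusted p up to 0.103), and the topp-7m call without any 1 of the 6 libraries compared (up to 0.146).

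UGT74C1 (AT2G31790, chromosome 2, 13518199 to 13520364, forward strand) makes the core of glucosinolates by adding glucose to sulfur. UGT74C1 stood at 35.4, 33.4 and 51.2 in wild type (CPM). It stood at 35.3, 40.8 and 31.7 in pp1r3-2, 7.68, 9.03 and 11.9 in topp4-1, 40.2, 27.5 and 37.9 in topp-7m and 46.2, 41.2 and 30.3 in the double mutant. The topp4-1 group lay below every other library, and the 4 other groups overlapped. The change was -2.06 ± 0.22 (adjusted p = 3.2e-06) in topp4-1, against -0.15 ± 0.20 (adjusted p = 0.645) in pp1r3-2 and -0.03 ± 0.20 (adjusted p = 0.949) in the double mutant.

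The matching upstream stretches of these 3 genes, which fell most in topp4-1 among called members with a mean of at least 2 CPM, are shown with the same marks. Under that level, UGT78D4, UGT71D2 and UGT76F2 were called with changes of -4.98, -2.68 and -2.35. The UGT71D2 call was lost without topp4-1 replicate 1 or 2 (adjusted p up to 0.0521), and its change was -3.96 without topp4-1 replicate 3. The 3 stretches lie at chr4:13761604-13761853 on the reverse strand and at chr1:10814362-10814611 and chr2:13517949-13518198 on the forward strand. The stretch of UGT78D1 overlaps another annotated gene, AT1G06347.
UGT79B2: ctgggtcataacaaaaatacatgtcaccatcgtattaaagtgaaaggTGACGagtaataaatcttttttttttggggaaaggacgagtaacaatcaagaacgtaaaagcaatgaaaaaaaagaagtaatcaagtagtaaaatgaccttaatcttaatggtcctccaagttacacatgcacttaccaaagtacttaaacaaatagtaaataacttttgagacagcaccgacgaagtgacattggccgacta
UGT78D1: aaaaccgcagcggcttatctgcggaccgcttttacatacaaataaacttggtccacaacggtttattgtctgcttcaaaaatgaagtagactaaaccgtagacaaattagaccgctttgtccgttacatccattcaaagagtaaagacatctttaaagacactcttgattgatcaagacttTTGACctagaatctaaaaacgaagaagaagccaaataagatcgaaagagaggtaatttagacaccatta
UGT74C1: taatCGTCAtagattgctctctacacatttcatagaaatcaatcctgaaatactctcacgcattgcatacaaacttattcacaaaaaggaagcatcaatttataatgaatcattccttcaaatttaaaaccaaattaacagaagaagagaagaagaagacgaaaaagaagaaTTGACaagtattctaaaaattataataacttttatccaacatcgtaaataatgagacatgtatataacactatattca

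Over all such stretches, 44.9% of 27419 promoters and 45 of 72 UGT promoters (62.5%) held the W-box core. The as-1 core was in 18.6% of all promoters and in 21 of 72 UGT promoters (29.2%). The 3 other motifs were searched on both strands: the G-box CACGTG (6.48% of all, 4.17% of UGT promoters), the evening element AAAATATCT (2.36% and 1.39%) and the MYB site ACCNAAC (14.5% and 13.9%). The W-box core and the as-1 core can share 4 bases, so those counts overlap. The W-box core was in all 3 stretches shown of genes that rose and in 2 of the 3 shown of genes that fell, and these matches are descriptions of letters and not of binding.

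**Figure D3:**
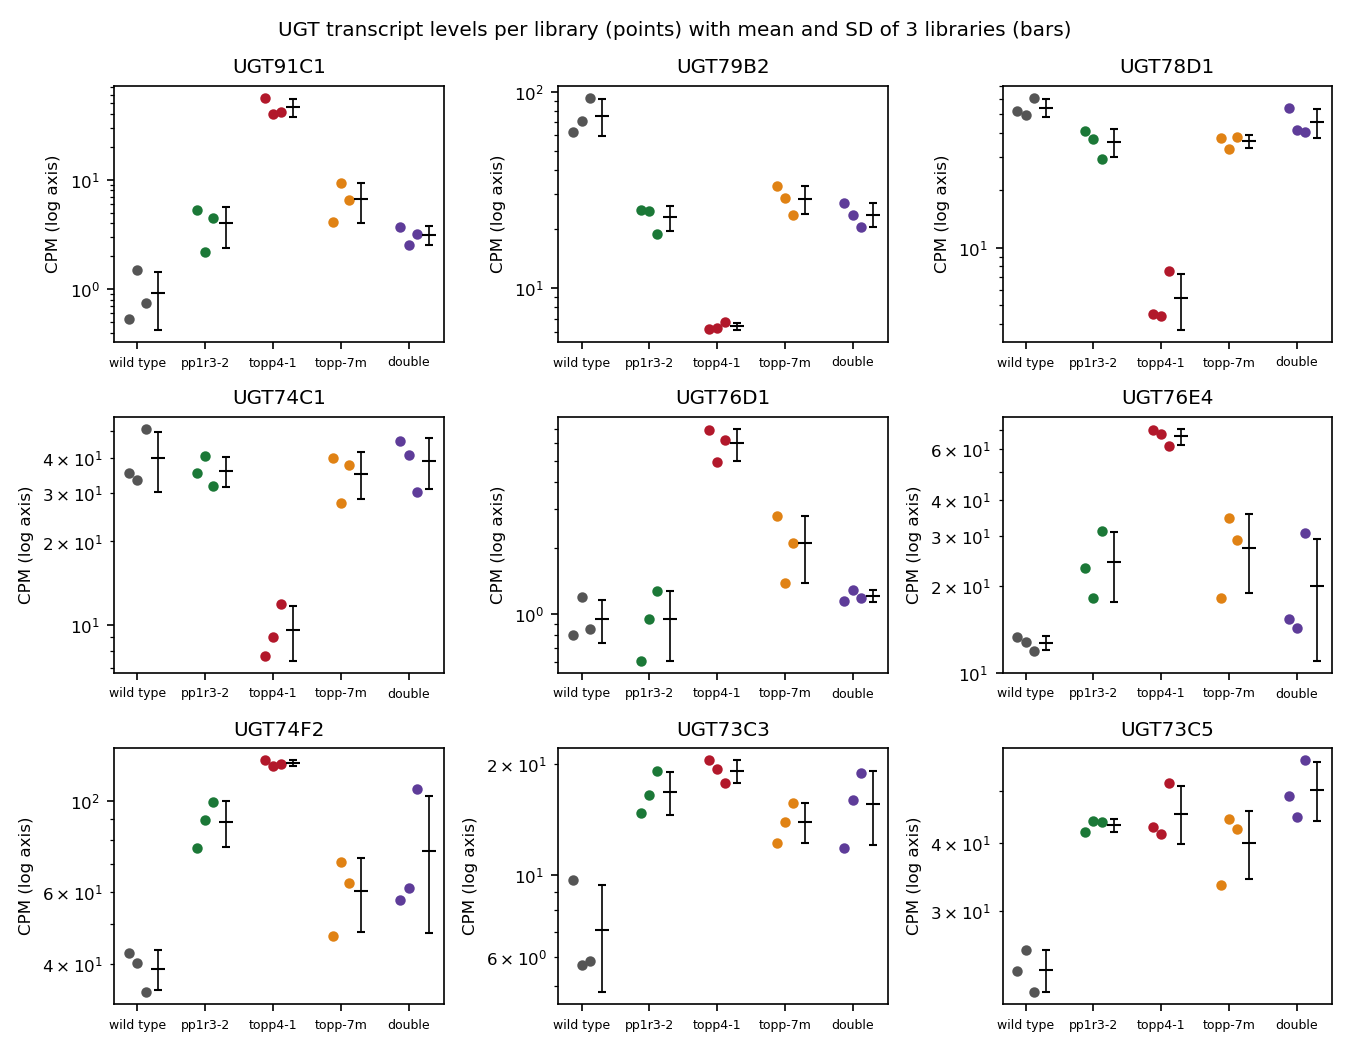
Level of 9 UGT genes in each of 15 libraries (points, CPM on a log axis) with the mean and SD of the 3 libraries per genotype (bars). The topp4-1 points of UGT91C1, UGT76D1, UGT76E4 and UGT74F2 lie above all other libraries and those of UGT79B2, UGT78D1 and UGT74C1 below them.

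In pp1r3-2 and in the double mutant, the highest rises after UGT91C1 included members of the UGT73C group on chromosome 2. UGT73C3 (AT2G36780, chromosome 2, 15417364 to 15419391, reverse strand) rose in all 4 mutants. UGT73C3 stood at 9.7, 5.68 and 5.85 in wild type (CPM). It stood at 14.7, 16.4 and 19.1 in pp1r3-2, 20.4, 19.3 and 17.7 in topp4-1, 12.2, 13.9 and 15.7 in topp-7m and 11.8, 16 and 18.9 in the double mutant. All 12 mutant libraries lay above all 3 of wild type, and the mutant groups overlapped each other except that topp-7m lay below topp4-1. The change was 1.44 ± 0.20 (adjusted p = 2.81e-05) in topp4-1, 1.25 ± 0.20 (adjusted p = 0.000614) in pp1r3-2, 1.14 ± 0.20 (adjusted p = 0.00187) in the double mutant and 0.98 ± 0.20 (adjusted p = 0.00557) in topp-7m. UGT73C5 (AT2G36800, chromosome 2, 15423172 to 15425129, reverse strand) glucosylates brassinosteroids and the fungal toxin deoxynivalenol. UGT73C5 stood at 23.2, 25.4 and 21.3 in wild type (CPM). It stood at 41.9, 43.9 and 43.7 in pp1r3-2, 42.9, 41.5 and 51.7 in topp4-1, 33.5, 44.2 and 42.4 in topp-7m and 48.8, 44.6 and 57 in the double mutant. Again no mutant library reached the wild-type range. The change was 1.10 ± 0.12 (adjusted p = 4.03e-05) in the double mutant, 0.96 ± 0.12 (adjusted p = 9.94e-06) in topp4-1, 0.89 ± 0.12 (adjusted p = 0.000162) in pp1r3-2 and 0.78 ± 0.12 (adjusted p = 0.000705) in topp-7m. Each coding sequence is 91.3% identical to a neighbour, UGT73C4 for UGT73C3 and UGT73C6 for UGT73C5.

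UGT74F2 (AT2G43820, chromosome 2, 18152078 to 18153908, forward strand) makes the glucose ester of salicylic acid. UGT74F2 stood at 42.4, 40.2 and 34.1 in wild type (CPM). It stood at 76.7, 89.9 and 99.1 in pp1r3-2, 126, 122 and 123 in topp4-1, 46.8, 70.8 and 63.2 in topp-7m and 57.3, 61.4 and 107 in the double mutant. The topp4-1 group was highest and tight, and every mutant library lay above wild type. The change was 1.66 ± 0.21 (adjusted p = 1.48e-05) in topp4-1, 1.19 ± 0.21 (adjusted p = 0.00134) in pp1r3-2 and 0.95 ± 0.21 (adjusted p = 0.00801) in the double mutant. In topp-7m the value was 0.63 ± 0.21 (adjusted p = 0.0641).

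Among genes that fell in pp1r3-2, UGT90A1 (AT2G16890, chromosome 2, 7316789 to 7319243, forward strand) went the other way in topp4-1. UGT90A1 stood at 5.63, 4.75 and 6.48 in wild type (CPM). It stood at 3.24, 3.23 and 2.28 in pp1r3-2, 7.27, 9.29 and 9.19 in topp4-1, 4.99, 3.44 and 2.67 in topp-7m and 4.47, 3.2 and 3.67 in the double mutant. The pp1r3-2 libraries lay below wild type and the topp4-1 libraries above it. The change was -0.94 ± 0.24 (adjusted p = 0.0116) in pp1r3-2 and 0.61 ± 0.23 (adjusted p = 0.0314) in topp4-1. The first call ended when either wild-type replicate 3 or pp1r3-2 replicate 3 was left out (adjusted p up to 0.0606), and the second without wild-type replicate 1 or 2 or topp4-1 replicate 2 or 3 (up to 0.118). UGT79B7 (AT4G09500, chromosome 4, 6018021 to 6019759, forward strand) fell in both. UGT79B7 stood at 6.43, 6.81 and 7.39 in wild type (CPM). It stood at 4.5, 4.46 and 3.18 in pp1r3-2, 2.69, 3.61 and 2.83 in topp4-1, 4.42, 5.67 and 7.17 in topp-7m and 5.78, 4.69 and 4.12 in the double mutant. The groups of pp1r3-2, topp4-1 and the double mutant lay below wild type, and topp-7m overlapped it. The change was -1.17 ± 0.22 (adjusted p = 0.000302) in topp4-1 and -0.76 ± 0.21 (adjusted p = 0.0199) in pp1r3-2, the latter lost without wild-type replicate 2 or 3 or pp1r3-2 replicate 3 (adjusted p up to 0.0868).

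UGT84A2 (AT3G21560, chromosome 3, 7595680 to 7597607, forward strand) makes sinapoylglucose, a donor in the synthesis of sinapate esters that screen ultraviolet light. UGT84A2 stood at 37.4, 36.3 and 45.2 in wild type (CPM). It stood at 25.7, 35.6 and 27.3 in pp1r3-2, 19.5, 22.8 and 16.5 in topp4-1, 28.6, 25.4 and 29.4 in topp-7m and 37.6, 29.8 and 34 in the double mutant. The topp4-1, pp1r3-2 and topp-7m groups lay below wild type, while the double mutant overlapped it. The change was -1.02 ± 0.14 (adjusted p = 2.63e-05) in topp4-1, -0.51 ± 0.14 (adjusted p = 0.0276) in topp-7m and -0.42 ± 0.14 (adjusted p = 0.0451) in pp1r3-2. The topp-7m call was lost without wild-type replicate 3 or any 1 topp-7m library (adjusted p up to 0.127). The pp1r3-2 call was lost without wild-type replicate 2 or 3 or pp1r3-2 replicate 1 or 3, with only the compared libraries fitted and with a replicate block (up to 0.183).

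UGT71C3 and UGT86A2 fell in the double mutant. For UGT71C3 (AT1G07260, chromosome 1, 2227594 to 2229357, reverse strand) wild-type replicate 3 decided the value. UGT71C3 stood at 2.84, 2.94 and 8.34 in wild type (CPM). It stood at 3.24, 2.17 and 2.12 in pp1r3-2, 2.03, 2.06 and 1.65 in topp4-1, 3.17, 1.39 and 2.57 in topp-7m and 2.73, 1.34 and 0.847 in the double mutant. The topp4-1 and double-mutant groups lay below wild type, where replicate 3 was far above the other 2, and the remaining groups overlapped it. The double-mutant change was -1.52 ± 0.46 (adjusted p = 0.0419), and without wild-type replicate 3 it was -0.83; the call was also lost without double-mutant replicate 2 or 3 and with only the compared libraries fitted (adjusted p up to 0.277). The topp4-1 change was -1.30 ± 0.45 (adjusted p = 0.0253), and without wild-type replicate 3 it was -0.61; leaving out any 1 topp4-1 library also ended the call (adjusted p up to 0.244). UGT86A2 (AT2G28080, chromosome 2, 11960571 to 11963440, reverse strand) changed little. UGT86A2 stood at 22.8, 24.5 and 28.9 in wild type (CPM). It stood at 18.2, 21.9 and 16.9 in pp1r3-2, 16.9, 14.7 and 17.6 in topp4-1, 18.2, 19.8 and 21.6 in topp-7m and 20.7, 20.4 and 15.8 in the double mutant. All 12 mutant libraries lay below wild type. The change was -0.63 ± 0.13 (adjusted p = 0.000981) in topp4-1, -0.42 ± 0.13 (adjusted p = 0.0474) in the double mutant and -0.42 ± 0.13 (adjusted p = 0.0363) in pp1r3-2. The double-mutant call was lost without wild-type or double-mutant replicates 2 or 3, with only the compared libraries fitted and with a replicate block (adjusted p up to 0.206). The pp1r3-2 call was lost without wild-type replicate 2 or 3 or pp1r3-2 replicate 1 or 3, and with only the compared libraries fitted (up to 0.162).

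Per length of gene, the most abundant UGT transcript was UGT87A2 (AT2G30140, chromosome 2, 12871984 to 12873866, forward strand), known to promote flowering, with a mean of 69.3 RPKM (CPM per 1000 bases of gene) over the 15 libraries. UGT87A2 stood at 114, 107 and 112 in wild type (CPM). It stood at 80.9, 98.2 and 112 in pp1r3-2, 186, 194 and 176 in topp4-1, 91, 113 and 135 in topp-7m and 95.5, 96.9 and 119 in the double mutant. Only topp4-1 stood above the rest, by 0.74 ± 0.14 (adjusted p = 0.000347) against wild type. UGT85A1 (AT1G22400, chromosome 1, 7903660 to 7906969, reverse strand) O-glucosylates the cytokinin zeatin and came second, with 57.4 RPKM. UGT85A1 stood at 124, 162 and 142 in wild type (CPM). It stood at 96.5, 87.4 and 128 in pp1r3-2, 113, 106 and 111 in topp4-1, 75.8, 120.2 and 114 in topp-7m and 116, 108 and 139 in the double mutant. The topp4-1 and topp-7m groups lay below wild type, but no change against wild type passed the test, the values being -0.38 ± 0.17 (adjusted p = 0.0738) in topp4-1 and -0.47 ± 0.17 (adjusted p = 0.0938) in topp-7m. UGT88A1 (AT3G16520, chromosome 3, 5618408 to 5620969, reverse strand) was the third, with 49.0 RPKM. UGT88A1 stood at 109, 99.1 and 92 in wild type (CPM). It stood at 123, 138 and 139 in pp1r3-2, 116, 123 and 110.3 in topp4-1, 119, 126 and 136 in topp-7m and 135, 124 and 127 in the double mutant. All 12 mutant libraries lay above all 3 of wild type. The changes were 0.41 ± 0.09 (adjusted p = 0.00457) in pp1r3-2, 0.37 ± 0.09 (adjusted p = 0.0131) in the double mutant, 0.35 ± 0.09 (adjusted p = 0.0196) in topp-7m and 0.22 ± 0.09 (adjusted p = 0.0466) in topp4-1. The topp4-1 call was lost in 10 of its alternative fits (adjusted p up to 0.215), the topp-7m call without wild-type replicate 2 or 3 or topp-7m replicate 3 (up to 0.0979), and the double-mutant call without wild-type replicate 3 (up to 0.0846), these last 2 also with only the compared libraries fitted.

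Counts by known substrate are of few genes each and stand beside 27% of all genes called higher and 26.5% called lower in topp4-1. Both described glucosinolate transferases fell there, UGT74C1 as above and UGT74B1 from 63.5 ± 10.2 to 32.9 ± 2.66 CPM (SD, n = 3), a log2 difference of -0.95 ± 0.14 (adjusted p = 3.14e-05). UGT74B1 also fell in pp1r3-2, by -0.63 ± 0.14 (adjusted p = 0.004). Of the 3 described genes listed as flavonoid transferases 2 fell, UGT78D1 and UGT78D2, which adds glucose to the 3-position of flavonols and anthocyanins. UGT79B2, which acts on anthocyanins and also fell, was not in that list. UGT78D2 went from 39.8 ± 9.82 to 25.0 ± 1.43 CPM, a log2 difference of -0.67 ± 0.16 (adjusted p = 0.00273). UGT75C1, the anthocyanin 5-glucosyltransferase, stood at 8.32 ± 6.58 CPM in wild type and 3.87 ± 0.491 CPM in topp4-1 and was not called (-1.10 ± 0.57 (adjusted p = 0.119)).

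Enzymes of salicylic acid and related benzoates did not move as 1 block. Of 5 described, 2 rose in topp4-1 (UGT74F2 and UGT76D1) and 1 fell, UGT76B1, which glucosylates isoleucic acid, salicylic acid and N-hydroxypipecolic acid. UGT76B1 went from 35.2 ± 7.66 to 20.8 ± 1.74 CPM, a log2 difference of -0.76 ± 0.27 (adjusted p = 0.0281) that was lost without wild-type replicate 2 or topp4-1 replicate 2 or 3 (adjusted p up to 0.117). UGT74F1, which makes the glucoside of salicylic acid, stayed under 1 CPM in every genotype, with means of 0.311 to 0.449 CPM.

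Of the 2 described abscisic acid transferases, UGT71B7 rose in all 4 mutants and UGT71C5 was called lower in topp4-1. UGT71B7 stood at 39.1 ± 3.49 CPM in wild type and 90.8 ± 1.86 CPM in topp4-1, a change of 1.21 ± 0.10 (adjusted p = 1.27e-07). Its change was 0.59 ± 0.10 (adjusted p = 0.000691) in pp1r3-2, 0.55 ± 0.10 (adjusted p = 0.00181) in the double mutant and 0.40 ± 0.10 (adjusted p = 0.0157) in topp-7m, the last lost without wild-type replicate 3 or topp-7m replicate 3 (adjusted p up to 0.0753). The UGT71C5 change was -0.27 ± 0.11 (adjusted p = 0.0406), lost without wild-type replicate 1 or 3 or topp4-1 replicate 1 (up to 0.132).

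Of the 3 described auxin transferases, UGT74E2 and UGT75D1, which both glucosylate indole-3-butyric acid, rose in topp4-1. UGT74E2 went from 1.26 ± 0.453 to 5.99 ± 1.61 CPM, a log2 difference of 2.24 ± 0.46 (adjusted p = 0.000802), and was not called in the other mutants. UGT75D1 went from 28.8 ± 3.34 to 52.1 ± 6.5 CPM, a log2 difference of 0.85 ± 0.18 (adjusted p = 0.00118), and rose by 0.91 in pp1r3-2 as well. In the double mutant UGT75D1 rose by 0.66 (adjusted p = 0.0284). That call was lost without wild-type replicate 1 or 3 or double-mutant replicate 1 or 3 (adjusted p up to 0.125). UGT76F1, which glucosylates an auxin precursor, fell in pp1r3-2 by 1.19 ± 0.36 (adjusted p = 0.0303) on the log2 scale, from 1.51 ± 0.380 to 0.660 ± 0.221 CPM, a call lost without wild-type replicate 2 or 3 or pp1r3-2 replicate 1, or with only the compared libraries fitted (up to 0.101). Among 3 cytokinin transferases, UGT76C2 rose from 12.8 ± 1.58 CPM in wild type to 20.2 ± 1.96 CPM in topp4-1 and 20.2 ± 2.58 CPM in pp1r3-2, while UGT76C1 stayed at 11.3 to 13.9 CPM on average.

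Of 7 described transferases of phenylpropanoids and monolignols, 3 fell and 1 rose in topp4-1. UGT84A2 fell as above, UGT84A4 fell by 1.41 ± 0.23 on the log2 scale and UGT72E1 by 0.78 ± 0.21 (adjusted p = 8.47e-05 and 0.00603). UGT72E2, also a monolignol glucosyltransferase, rose from 3.65 ± 0.467 to 12.6 ± 4.58 CPM, a log2 difference of 1.79 ± 0.39 (adjusted p = 0.00143). The 2 genes that are required in Arabidopsis for resistance to Pseudomonas syringae, UGT73B3 and UGT73B5, rose in topp4-1 by 1.00 ± 0.14 and 0.77 ± 0.16 (adjusted p = 2.9e-05 and 0.00102). UGT73B4 lies within the span of UGT73B5 on the same strand, and their coding sequences are 89.8% identical. The split of reads between UGT73B4 and UGT73B5 is therefore uncertain. The sterol glucosyltransferase UGT80A2 stayed at means of 29.6 to 31.6 CPM in all 5 genotypes, with changes against wild type between -0.02 ± 0.09 and 0.07 ± 0.09. The other sterol gene, UGT80B1, was called lower in pp1r3-2 alone among the 4 comparisons (-0.39 ± 0.10 (adjusted p = 0.0166)).

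Counts by family in topp4-1 stand beside the same shares of all genes, 27% higher and 26.5% lower. In UGT73, 8 of 10 described members rose and none fell, with a median log2 change of 1.00. The 8 include UGT73B5, whose split of reads with UGT73B4 is uncertain. They also include UGT73C7 (1.01, adjusted p = 0.0185), a call lost without wild-type replicate 1 or 3 or topp4-1 replicate 2 (up to 0.104). The summed level of the 13 UGT73 genes was 156.9 ± 18.5 CPM in wild type and 283 ± 11.2 CPM in topp4-1. In the other mutants it was 205.1 to 209.7 CPM on average. In UGT78 all 3 described members fell, with a median of -3.29, and the summed level went from 96.3 ± 15.5 to 30.6 ± 0.845 CPM. In the double mutant the UGT78 sum was 94.8 ± 12.8 CPM and none of the 3 was called.

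In other families directions were mixed. UGT71 had 2 members higher and 5 lower of 10 in topp4-1, UGT76 had 4 higher and 3 lower of 13, UGT74 had 2 and 3 of 6, and UGT72 had 1 and 3 of 5. UGT79 summed to 83.5 ± 16.8 CPM in wild type and to 10.6 ± 0.630 CPM in topp4-1, and UGT79B2 alone made up 75.5 and 6.39 CPM of these. UGT82 and UGT83, with 1 gene each, had no described member.

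The effect of topp4-1 was set beside its effect in plants that also carried pp1r3-2. Against wild type, the topp4-1 changes of the 72 genes ran from -4.98 to 5.62 on the log2 scale, and 41 genes were within 1 of no change. Against pp1r3-2, the changes of the double mutant ran from -1.92 to 0.98, and 71 of 72 were within 1; these 2 comparisons share no library. No UGT gene was called between the double mutant and pp1r3-2 by edgeR or by DESeq2, and 8 had an unadjusted p under 0.05 in edgeR; of all genes 0.0349% were called there, all of them lower, and 0.02% by at least 2-fold. Same-numbered libraries of these 2 genotypes deviated together, and a fit of the 6 libraries with the replicate number as a block, added after the data were seen, called 103 of 19210 genes (0.536%). It called none of the 67 UGT genes it tested, and the smallest adjusted p was 0.0525 for UGT72B1. Of the 67, 14 had an unadjusted p under 0.05. The share of all genes at that unadjusted threshold is not given here, so the counts of 8 and 14 have no background to stand beside. Across genes, Pearson's r between both sets of changes was -0.22 over 72 genes, which are not independent replicates.

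The interaction, which subtracts the topp4-1 change seen in wild-type plants from that seen in pp1r3-2 plants, was called for 38 of 72 UGT genes, 18 above and 20 below 0, beside 38.3% of all genes (19% above and 19.3% below). The highest values with at least 2 CPM were 3.64 ± 0.26 (adjusted p = 2.22e-07) for UGT78D1 and 3.61 ± 0.24 (adjusted p = 1.07e-07) for UGT79B2. The lowest were -5.97 ± 0.54 (adjusted p = 2.4e-06) for UGT91C1 and -2.66 ± 0.41 (adjusted p = 0.000262) for UGT76E4. UGT78D1 was at 45.4 ± 7.63 CPM in the double mutant and 35.7 ± 5.95 CPM in pp1r3-2, against 5.49 ± 1.78 CPM in topp4-1. UGT91C1 was at 3.15 ± 0.594 CPM in the double mutant and 4 ± 1.63 CPM in pp1r3-2, against 46.1 ± 8.95 CPM in topp4-1.

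**Figure D4:**
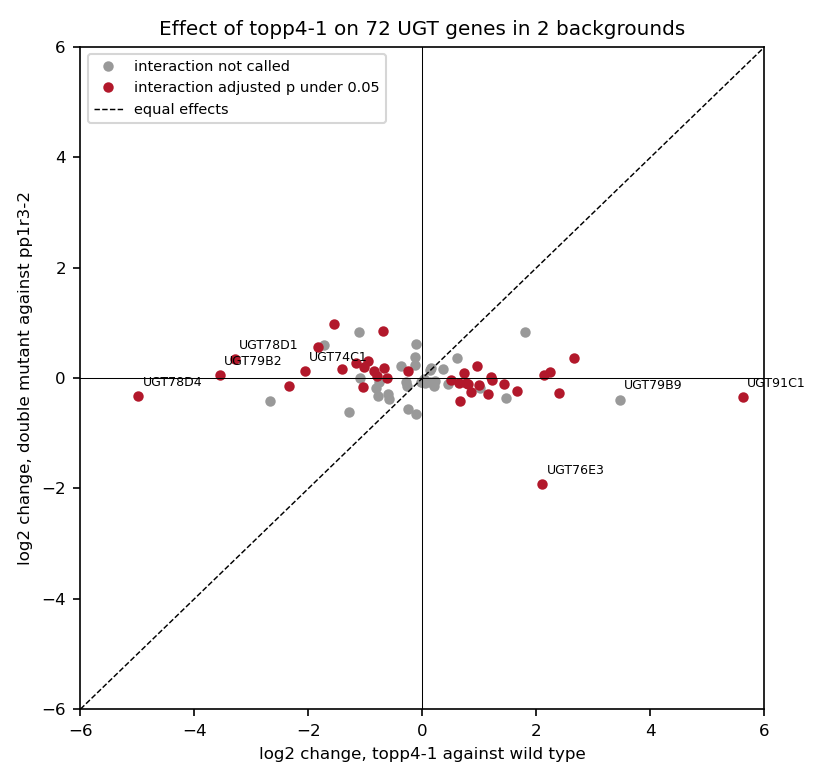
Log2 change of 72 UGT genes in topp4-1 against wild type (horizontal) and in the double mutant against pp1r3-2 (vertical), with called interactions in red and equal effects as a dashed line. The points spread from -4.98 to 5.62 along the horizontal axis and from -1.92 to 0.98 along the vertical axis.

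Set directly against topp4-1, the double mutant differed for 39 of 72 UGT genes, 19 higher and 20 lower, beside 43.3% of all genes (21.4% higher and 21.9% lower). UGT79B2 stood 1.89 ± 0.18 (adjusted p = 9.1e-07) higher and UGT91C1 differed by -3.87 ± 0.35 (adjusted p = 1.13e-06). The septuple mutant topp-7m differed from topp4-1 for 35 UGT genes, 15 higher and 20 lower, beside 37.8% of all genes (19.3% higher and 18.5% lower). There UGT78D1 differed by 2.71 ± 0.20 (adjusted p = 3.5e-07) and UGT91C1 by -2.79 ± 0.32 (adjusted p = 1.8e-05), so both stood between wild type and topp4-1 in topp-7m.

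UGT genes that lie within 10000 bases of each other formed 20 clusters with 63 members, and 15 clusters had 2 or more described genes. Neighbours moved alike in some clusters and apart in others; the genes named here were chosen after their values were seen. In the UGT73C cluster on chromosome 2, UGT73C4, UGT73C3 and UGT73C5 changed by 1.20, 1.44 and 0.96 in topp4-1, all called higher. In the UGT76E cluster on chromosome 3, UGT76E4 and UGT76E3 rose by 2.39 and 2.10 in topp4-1, the latter by 3.16 without wild-type replicate 2. UGT76E6, the other described member there, stood at 1.46 and was not called. UGT76E3 then stood at 0.144 ± 0.027 CPM in the double mutant, below its wild-type 0.834 ± 0.764 CPM (-2.49 ± 0.77 (adjusted p = 0.0426)), a call lost without wild-type replicate 2 or 3 or any 1 double-mutant library and with a replicate block (adjusted p up to 0.283), and a change of -1.43 without wild-type replicate 2.

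On chromosome 1 the adjacent genes UGT74E1 and UGT74E2 went opposite ways in topp4-1, at -0.80 ± 0.22 (adjusted p = 0.00616) and 2.24 ± 0.46 (adjusted p = 0.000802). On chromosome 5 UGT78D4 fell by far more than its neighbour UGT78D2. UGT78D4 had 35, 37 and 28 counts in wild type and 2, 0 and 1 counts in topp4-1, with a level 35.7-fold higher (11.9 to 176) in wild type from the summed counts (exact 95% interval of counting error). The fitted log2 change was -4.98 ± 0.64 (adjusted p = 1.12e-05), a value that depends on the prior count and was -5.86 without topp4-1 replicate 1. In the double mutant it had 37, 19 and 34 counts. In the UGT84A cluster on chromosome 4, UGT84A4 fell in topp4-1 while UGT84A3 between it and UGT84A1 stood at 0.37 ± 0.17 (adjusted p = 0.0743). UGT84A1 stood at -1.55 and was not called.

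**Figure D5:**
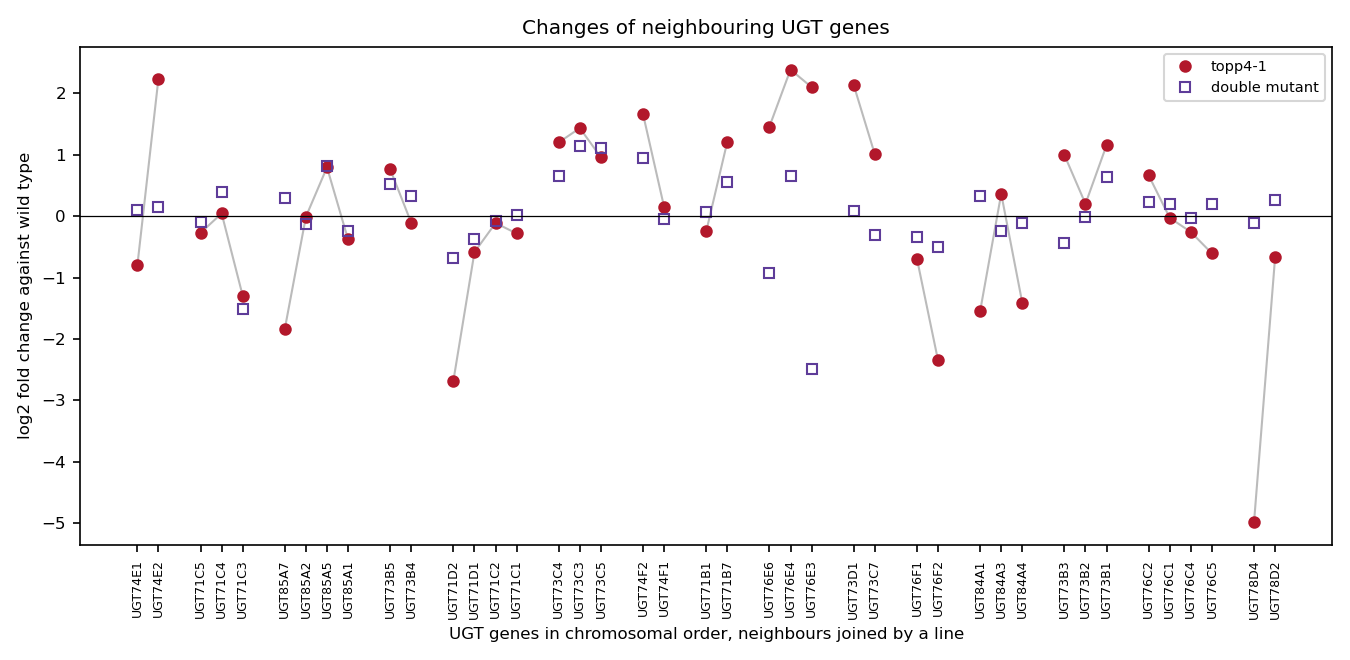
Log2 fold change against wild type of described UGT genes in 15 clusters of neighbours, in chromosomal order, for topp4-1 (filled circles, joined within a cluster) and the double mutant (open squares). UGT74E1 and UGT74E2 lie on opposite sides of 0 in topp4-1, at -0.80 and 2.24.

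The described genes were compared by Pearson's r of log2 CPM over all 15 libraries, which share genotypes and library depth. The pattern most like that of UGT91C1 was UGT76E4 (r = 0.946), followed by UGT73D1 (0.918) and UGT76D1 (0.895). For UGT78D1 it was UGT74C1 (0.974), then UGT72B3 (0.918) and UGT84A4 (0.899). For UGT79B2 the nearest were UGT78D1 (0.885), UGT74B1 (0.882) and UGT84A2 (0.858). For UGT76E4 they were UGT91C1 (0.946), UGT71B7 (0.913) and UGT73D1 (0.898). They describe these libraries only.

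UGT enzymes depend on a supply of UDP-sugars, and 28 genes for it were all tested. In topp4-1 8 rose and 15 fell, which is 82.1% called beside 53.5% of all genes. In pp1r3-2 3 rose and 9 fell, or 42.9% beside 19.3%. In topp-7m 4 rose and 6 fell, or 35.7% beside 11.6%. Of the list, 2 rose and 6 fell in the double mutant, or 28.6% beside 13.1%. None was called between the double mutant and pp1r3-2 (4 at an unadjusted p under 0.05 in edgeR, a threshold without a share of all genes here). SUS3 (AT4G02280), a sucrose synthase that makes UDP-glucose, rose from 3.27 ± 0.168 CPM in wild type to 21.2 ± 0.986 CPM in topp4-1 (2.69 ± 0.15, adjusted p = 3.74e-09). UGE1 (AT1G12780), which interconverts UDP-glucose and UDP-galactose, rose from 55.2 ± 6.30 to 232 ± 8.19 CPM (2.07 ± 0.13, adjusted p = 9.75e-09). AT5G17310, a UDP-glucose pyrophosphorylase listed as UGP1 in the table, fell from 39 ± 2.29 to 16.3 ± 1.01 CPM (-1.26 ± 0.08, adjusted p = 1.31e-08). UGD2 (AT3G29360), which oxidises UDP-glucose, fell in all 4 mutants, from 145 ± 18.5 CPM to means of 77.1 to 94.2 CPM.

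Of the 14 members listed at 0 in every library, 9 have at least 90% of their span covered by another annotated gene. They are UGT71B2, UGT71B6, UGT73C6, UGT74D1, UGT76E1, UGT76E11, UGT76E12, UGT85A4 and UGT89C1, and in each the covering gene lies on the opposite strand. Of all 11 members covered to that extent 9 were at 0 (81.8%), against 5 of the other 94 (5.32%). Over all protein-coding genes of the chromosomes the shares were 537 of 685 covered (78.4%) and 3360 of 26735 others (12.6%). UGT89C1, the flavonol 7-rhamnosyltransferase, UGT74D1, an auxin transferase, and UGT71B6, an abscisic acid transferase, are among them. Nothing can be said here of their expression, since they are listed at 0 and how the counting treated overlapping genes is not given in the sources used here.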

How the data were processed

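RNA-seq of 15 leaf libraries was grouped by labelled genotype. The values are raw counts per gene that the authors deposited as whole numbers. HISAT2 2.0.5 is the aligner named in the submitters' processing notes. How reads were counted, whether strand was used, and which build and annotation served are points not given in the sources used here, so reads of overlapping, antisense or near-identical genes may be assigned uncertainly. All 105 UGT identifiers had equal start and end positions in TAIR10.1, which is the build of all coordinates printed.

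Genes were kept by edgeR's filterByExpr (minimum count 10, minimum total 15), which left 20037. TMM scaling and a quasi-likelihood fit with a mean per genotype were applied to all 15 libraries (edgeR 4.0.16, R 4.3.3), with Benjamini-Hochberg adjustment over all genes tested and a threshold of 0.05. The fit was tested on simulated data. Each standard error is the size of the log2 change over the root of its F statistic. CPM uses TMM-scaled library sizes, and RPKM the gene length in the table. Errors are SD over 3 libraries, and counting intervals cover counting error only.

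Genes given with each library were, per comparison with wild type, the 3 highest and 3 lowest changes among called members with a mean of at least 2 CPM, 2 and 2 for the interaction, and the 3 with the highest mean RPKM. The members, the role and UDP-sugar lists and the tests were chosen with earlier results of these data known. Alternatives were other size factors and filters, DESeq2 1.42.0, the compared groups alone, a replicate block, a log2 change of at least 1, and leaving out each library. Replicate numbers were checked as pairs by the correlation of deviations from genotype means: every same-numbered pair was over 0.1 for 1 of 10 pairs of genotypes, pp1r3-2 and the double mutant (0.217 to 0.447). Coding sequences were aligned with blastn 2.17.0.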

Additional observations from a re-analysis of the deposited data

Results flagged for a closer look

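For 38 of 72 UGT genes, the log2 change with topp4-1 in pp1r3-2 differed from that in wild type. This was tested by the interaction term of edgeR's quasi-likelihood fit (adjusted p under 0.05 over all genes tested). The interaction was called for 38.3% of all genes. No UGT gene was called in the double mutant against pp1r3-2. Of the 38, UGT76F1 and UGT84A1 were not called in topp4-1 against wild type either. Values are the log2 change in pp1r3-2 minus that in wild type. They were below 0 for UGT91C1 (-5.97), UGT76E3 (-4.02), UGT76E4 (-2.66), UGT76D1 (-2.29), UGT74E2 (-2.13), UGT73D1 (-2.08), UGT74F2 (-1.90), UGT73C3 (-1.54), UGT73B1 (-1.45), UGT71B7 (-1.25), UGT73C4 (-1.18), UGT73B3 (-1.12), UGT75D1 (-1.10), UGT76C2 (-1.09), UGT85A5 (-0.91), UGT73B5 (-0.85), UGT73C5 (-0.74), UGT89B1 (-0.74), UGT87A2 (-0.64) and UGT92A1 (-0.54). They were above 0 for UGT78D4 (4.65), UGT78D1 (3.64), UGT79B2 (3.61), UGT84A1 (2.52), UGT85A7 (2.40), UGT76F2 (2.19), UGT74C1 (2.19), UGT84A4 (1.58), UGT76F1 (1.54), UGT79B7 (1.44), UGT74B1 (1.26), UGT84A2 (1.21), UGT86A1 (0.99), UGT72B3 (0.88), UGT78D2 (0.85), UGT74E1 (0.84), UGT86A2 (0.63) and UGT71B1 (0.37). Adjusted p ran from 1.07e-07 for UGT79B2 to 0.0409 for UGT74E1 and UGT84A1. The calls of UGT73C4, UGT74E1, UGT74E2, UGT76F1, UGT84A1, UGT85A5 and UGT87A2 were lost when single libraries were left out, with adjusted p up to 0.121; that of UGT84A1 was also lost with only the compared libraries fitted. Without topp4-1 replicate 1 the value was 4.15 for UGT84A1 and 5.54 for UGT78D4. Leaving out wild-type replicate 2 gave -5.08 for UGT76E3, and leaving out pp1r3-2 replicate 3 gave -3.39.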

How the results depend on the processing

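No named call changed direction in the alternatives run. With a log2 change of at least 1 required as well, fewer genes can pass. UGT calls numbered 5 in pp1r3-2 (3.89% of all genes), 27 in topp4-1 (19.1%), 4 in topp-7m (2.58%) and 6 in the double mutant (2.72%). They numbered 22 in the double mutant against topp4-1 (14.1%), 19 in topp-7m against topp4-1 (12%) and 26 for the interaction (17%). With only the compared libraries fitted, the double mutant had 10 calls in place of 17, beside 6.97% in place of 13.1% of all genes. Leaving out 1 library gave 15 to 26 calls in pp1r3-2, 5 to 12 in topp-7m, 6 to 14 in the double mutant and 42 to 50 in topp4-1. The shares of all genes were 11.8 to 19.3%, 6.65 to 11.6%, 6.8 to 14.8% and 45.6 to 50.2%. For the double mutant against topp4-1, leaving out 1 library gave 33 to 40 calls (34.4 to 44.5% of all genes). It gave 31 to 35 in topp-7m against topp4-1 (28.3 to 35.7%) and 32 to 40 for the interaction (32.4 to 42.2%). The double mutant against pp1r3-2 had 0 calls in all alternatives run, DESeq2 among them, beside at most 0.536% of all genes.

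At least 1 alternative ended 10 of 24 calls in pp1r3-2, 10 of 50 in topp4-1, 8 of 12 in topp-7m, 12 of 17 in the double mutant and 7 of 38 for the interaction. The required log2 change of at least 1, which ends further calls, is not counted among the alternatives here. By the deviations of same-numbered libraries, only pp1r3-2 and the double mutant had every pair over 0.1. For topp-7m and the double mutant the values were 0.388, -0.003 and 0.514 in replicates 1, 2 and 3. For pp1r3-2 and topp-7m they were 0.229, 0.034 and 0.32. Over all genotypes, such libraries correlated at -0.337 to 0.514 with each other, with 9 of 30 pairs over 0.1, and 7 of 15 libraries were closest to their own number. With the replicate block, UGT calls were 24 in pp1r3-2 (20.2% of all genes) and 50 in topp4-1 (54.4%). They were 12 in topp-7m (12.2%) and 17 in the double mutant (14.2%). The double mutant had 38 against topp4-1 (44.1%) and 0 against pp1r3-2 (0.0399%). For topp-7m against topp4-1 there were 34 (38.7%), and for the interaction 41 (39.3%). The block ended the calls of UGT84A2 in pp1r3-2, UGT88A1 in topp4-1, UGT76E3 and UGT86A2 in the double mutant, UGT79B9 in the double mutant against topp4-1 and UGT71D2 in topp-7m against topp4-1. Depth limits genes with few reads, such as UGT79B9 and UGT76E6.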
